A study of Mus musculus with 6 samples.

Results

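The genes described here are 10 core components and targets of the Notch pathway: the receptors Notch1, Notch2, Notch3 and Notch4, the ligand Jag1, the DNA-binding factor Rbpj, and the target genes Hes1, Hes5, Hey1 and Hey2. They were chosen by name from the 34745 genes of the deposited table, and each name matched 1 row. RNA was sequenced from the dorsal striatum of C57BL/6 mice aged 1 year, in 3 libraries from mice heterozygous for Ash1l (Ash1l het) and 3 from wild type (WT) mice. The nature of the Ash1l allele, and whether each library is a separate animal, are not given in the labels, and the p-values here cover only the spread among these 6 libraries, which may be technical. The comparison asks whether Notch targets differ in a tissue in which Bend6, a Notch corepressor, does.

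Notch receptors are membrane proteins that are cut when a ligand such as Jag1 on a neighbouring cell binds them. Sequential cleavage, ending with gamma-secretase, frees the intracellular domain, which enters the nucleus and joins Rbpj and a Mastermind coactivator on DNA. Without that domain, Rbpj recruits corepressors and holds targets silent; with it, the Hes and Hey genes, which encode transcriptional repressors, are turned on. In the adult brain the pathway is known for keeping neural stem cells and astrocytes in their state and for building and maintaining blood vessels, where Notch3 marks mural cells and Notch4 marks endothelium.

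Rbpj binds DNA with the core letters GTGGGAA. Promoter windows of 300 bases (250 before to 50 after the transcription start, RefSeq, build GRCm38.p6) were matched for 8 of the 10 genes. Hes1 and Hey1 were not searched. The Notch3 window, unlike those of the other matched genes, did not end inside the annotated transcript, so it may not sit on the annotated start. GTGGGAA, searched on both strands, was found in 2 of these 8, the targets Hes5 and Hey2, with 2 matches in each. Of all 32851 windows in the table, 6.38% held the core at least once and 0.256% held it at least 2 times. Both windows are shown because they carry the letters through which Notch is read at a target, 5′ to 3′ on the gene's strand, with the matches in capitals. The Hes5 window is chr4:154960673-154960972 on the plus strand and the Hey2 window is chr10:30842734-30843033 on the minus strand.
Hes5: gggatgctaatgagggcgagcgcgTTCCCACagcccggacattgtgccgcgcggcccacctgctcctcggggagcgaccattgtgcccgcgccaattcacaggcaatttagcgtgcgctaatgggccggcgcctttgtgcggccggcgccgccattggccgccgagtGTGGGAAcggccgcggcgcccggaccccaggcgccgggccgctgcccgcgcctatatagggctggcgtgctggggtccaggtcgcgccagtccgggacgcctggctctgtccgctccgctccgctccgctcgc
Hey2: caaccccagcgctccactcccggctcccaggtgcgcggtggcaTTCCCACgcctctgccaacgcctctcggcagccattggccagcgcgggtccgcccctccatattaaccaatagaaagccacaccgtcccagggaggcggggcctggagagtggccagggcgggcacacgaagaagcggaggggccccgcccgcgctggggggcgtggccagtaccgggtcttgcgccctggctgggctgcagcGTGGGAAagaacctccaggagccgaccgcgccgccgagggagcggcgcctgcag

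In the Hes5 window the forward match lay 83 to 77 bases before the start and the reverse one, TTCCCAC, began 226 bases before it. In the Hey2 window the forward match spanned the RefSeq start itself, from base -4 to base 3, and the reverse match began 207 bases before it. The deposited locus of Hey2, on the minus strand, ends at 30842801, upstream of this RefSeq start. By that locus the forward match lies inside the gene. With the looser letters GTGNGAA, which include GTGGGAA and occur in 14.2% of all windows, Notch4 also matched, on the reverse strand 68 to 62 bases before its start. A match describes the letters of the window and is not a measured binding site.

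Library totals ran from 14421259 to 18798694 counts in Ash1l het and from 12080663 to 17381781 in WT. Ash1l itself, the histone methyltransferase gene that is heterozygous, stood at 281, 198 and 253 CPM (counts scaled to library size) in Ash1l het, against 308, 295 and 293 CPM in WT, and did not pass (log2 fold change -0.29, SE 0.13, edgeR adjusted p = 0.858). Ash1l het replicates 1 and 2 stood apart on the first principal component (28.9% of the variance), at -18.5 and -30.5, while the other 4 libraries lay at 4.2 or higher. The same 2 also differed from each other, lying at opposite ends of the second component, at 34.6 and -25.4. The astrocyte gene Gfap, named after its values were seen, was also highest in those 2, at 412 and 733 CPM against 62.1 to 154 CPM elsewhere, and blood genes summed to 56.1 to 123 CPM in Ash1l het, against 23.0 to 35.4 CPM in WT. The protocol states male mice, but Xist lay between 1960 and 2960 CPM in all 6 libraries, and 4 Y-linked genes summed to 0 or 1 count in each. Spiny projection neuron markers, which define striatum, summed to 8900 to 11000 CPM in Ash1l het, against 9510 to 10600 CPM in WT. Of these 12 markers, 0 were at 0 counts, 3 were higher and 9 lower by sign, and 0 were called. Oligodendrocyte precursor markers summed to 443 to 492 CPM in Ash1l het, against 546 to 553 CPM in WT, with 2 of 6 higher and 4 lower by sign and 0 called. The largest part was Cspg5, at 194 to 222 CPM in Ash1l het, against 225 to 250 CPM in WT. Olig1, the next, overlapped, at 49.7 to 108 CPM in Ash1l het, against 93.5 to 106 CPM in WT. The part of these differences in the results that follow was not tested.

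Bend6, a BEN domain protein that acts with Rbpj as a corepressor, was the 1 gene of the pathway that passed. It stood at 91.4, 74.5 and 88.5 CPM in Ash1l het, against 33.6, 30.1 and 33.1 CPM in WT. All Ash1l het libraries lay above all WT libraries, at 2.63-fold in the fit (95% interval 2.19 to 3.14, log2 fold change 1.39, SE 0.12, edgeR adjusted p = 0.00437). Without WT replicate 3 its edgeR adjusted p was 0.0823.

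None of the 10 Notch genes passed the test between the genotypes. All 10 passed the filter on low counts, and 0 of 10 were called by the quasi-likelihood test of edgeR at an adjusted p under 0.05, where 0.0131% of the 15267 genes tested were called. By DESeq2 0 of 10 were called, with 0.183% of genes called, and by the exact test of edgeR 0 of 10, with 0.269% called. At an unadjusted p under 0.05 the quasi-likelihood test also gave 0 of 10, where 5.78% of all genes lay under it. By sign 7 were lower and 3 higher, against 48.6% of all genes lower, and the median log2 fold change of the 10 was -0.067, against 0.006 over all genes tested. The 95% interval of each fold change included 0 on the log2 scale, the lowest bound being 0.577-fold, for Hes5, and the highest 1.85-fold, for Rbpj. With single libraries left out the median of the 10 ran from -0.207, without Ash1l het replicate 3, to 0.053, without Ash1l het replicate 1, and between 3 and 8 of the 10 were lower by sign.

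**Figure D1:**
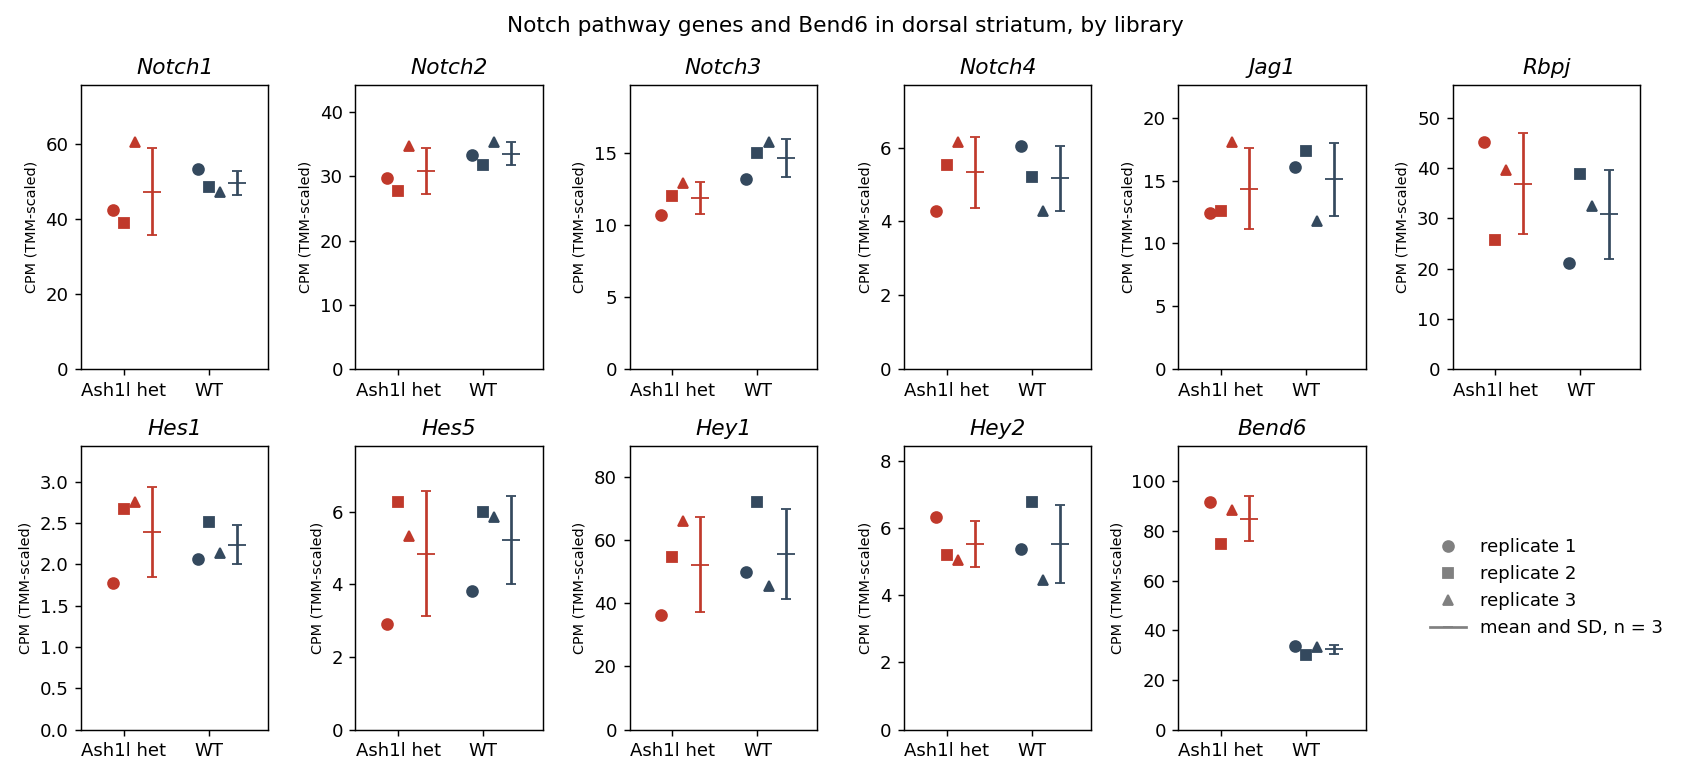
CPM on the TMM scale (y axis, from 0) in each library for the 10 Notch genes and Bend6, with Ash1l het left of WT. Symbols are replicates and bars give the mean and SD (n = 3 each). The groups overlap for 9 of the 10 Notch genes, Notch3 being the exception, while the Bend6 groups are far apart.

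The receptors come first. Notch1 is known for arterial fate and for maintaining neural stem cells (gene ENSMUSG00000026923, GRCm38 chromosome 2, 26457903 to 26516663, minus strand). It stood at 42.4, 38.8 and 60.5 CPM in Ash1l het, against 53.2, 48.4 and 47.0 CPM in WT. Ash1l het supplied both the highest and the lowest library, so the groups overlapped, and the log2 fold change was -0.07 (95% interval -0.44 to 0.30, edgeR adjusted p = 0.969). The direction depended on the Ash1l het libraries kept. It was -0.29 on the log2 scale when Ash1l het replicate 3 was left out (edgeR unadjusted p = 0.0376, adjusted p = 0.422), and with replicate 3 as the single Ash1l het library it was 0.29 (edgeR unadjusted p = 0.0303, adjusted p = 0.716).

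Notch2, a receptor also found on glia (ENSMUSG00000027878, chromosome 3, 98013527 to 98150361, plus strand), varied least of the 10. It stood at 29.8, 27.8 and 34.8 CPM in Ash1l het, against 33.4, 31.8 and 35.4 CPM in WT, and its highest library was 1.27-fold its lowest. The groups overlapped, with a log2 fold change of -0.12 (95% interval -0.40 to 0.15, edgeR adjusted p = 0.910), so that a fall below 0.759-fold or a rise above 1.11-fold lay outside the interval.

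Notch3, the receptor of pericytes and vascular smooth muscle (ENSMUSG00000038146, chromosome 17, 32120820 to 32166880, minus strand), came nearest to a difference. It stood at 10.7, 12 and 12.9 CPM in Ash1l het, against 13.2, 15 and 15.8 CPM in WT. Each Ash1l het library lay below each WT library, with 12.9 against 13.2 CPM as the nearest pair. The log2 fold change was -0.31 (SE 0.15, 95% interval -0.63 to 0.02), with an unadjusted edgeR p of 0.0639 and an adjusted p of 0.859, and the exact permutation p (two-sided) was 0.1, the lowest value possible with 3 libraries a group. Of all tested genes 7.42% had a smaller p. It was the 1 gene of 10 whose groups did not overlap (10%), where 11.7% of all tested genes did not overlap and 5.53% of all tested genes did so with Ash1l het lower. With each single library left out the log2 fold change stayed between -0.38 and -0.24.

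No marker of the cells that carry Notch3 was called. Pericyte markers summed to 226, 221 and 255 CPM in Ash1l het, against 197, 232 and 211 CPM in WT, and 5 of 8 were higher by sign, among them Rgs5 at a log2 ratio of 0.27 (SE 0.12, edgeR adjusted p = 0.858) and Vtn at 0.10 (SE 0.11, edgeR adjusted p = 0.911). Smooth muscle markers summed to 18.1 to 30 CPM in Ash1l het, against 19.6 to 25.2 CPM in WT. In bulk tissue, fewer cells of a type and less RNA per cell cannot be told apart. Counts of Notch3 may also include those of the antisense gene Gm17276, whose exons share 488 bases with it and which stood at 6.05, 7.10 and 6.65 CPM in Ash1l het, against 6.29, 6.87 and 5.79 CPM in WT. Gm17276 had a log2 ratio of 0.06 (SE 0.17, edgeR adjusted p = 0.974).

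Notch4, the endothelial receptor (ENSMUSG00000015468, chromosome 17, 34564268 to 34588503, plus strand), was the lowest of the receptors. It stood at 4.28, 5.54 and 6.16 CPM in Ash1l het, against 6.04, 5.20 and 4.28 CPM in WT. The ranges nearly coincided, with a log2 fold change of 0.05 (95% interval -0.45 to 0.55, edgeR adjusted p = 0.982). Endothelial markers summed to 444, 398 and 477 CPM in Ash1l het, against 347, 399 and 377 CPM in WT, and 10 of 12 were higher by sign with 0 called; their part in the level of Notch4 was not tested.

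Jag1, a transmembrane ligand of arterial endothelium and smooth muscle (ENSMUSG00000027276, chromosome 2, 137081456 to 137116644, minus strand), stood at 12.4, 12.6 and 18.1 CPM in Ash1l het, against 16.1, 17.4 and 11.8 CPM in WT. Its highest library was Ash1l het replicate 3 and its lowest WT replicate 3, and the groups overlapped. The log2 fold change was -0.07 (95% interval -0.53 to 0.39, edgeR adjusted p = 0.976).

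Among the 10 genes, Rbpj had the 95% interval with the highest upper bound. Rbpj is the factor on which both the coactivator and Bend6 assemble (ENSMUSG00000039191, chromosome 5, 53466152 to 53657362, plus strand). It stood at 45.3, 25.7 and 39.7 CPM in Ash1l het, against 21.2, 38.8 and 32.5 CPM in WT. Each group held 1 library far below its other 2, Ash1l het replicate 2 and WT replicate 1, and the highest library was 2.14-fold the lowest. The log2 fold change was 0.25 (SE 0.27, 95% interval -0.37 to 0.88, edgeR adjusted p = 0.918), and it lay between 0.05 and 0.46 with single libraries left out. A rise of Rbpj up to 1.85-fold therefore stayed inside the interval, while the 2.19-fold lower bound of Bend6 lay outside it.

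The targets follow. Hes1, a repressor that oscillates in neural progenitors and persists in stem cells (ENSMUSG00000022528, chromosome 16, 30064384 to 30067796, plus strand), rested on 26, 41 and 50 counts in Ash1l het and 25, 42 and 37 counts in WT. On the CPM scale it stood at 1.77, 2.67 and 2.75 in Ash1l het, against 2.07, 2.51 and 2.14 in WT. The WT values lay inside the Ash1l het range, with a log2 fold change of 0.10 (95% interval -0.53 to 0.72, edgeR adjusted p = 0.976).

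Hes5, the target most used as a readout of Notch in neural progenitors and astrocytes (ENSMUSG00000048001, chromosome 4, 154960923 to 154962371, plus strand), is 1 of the 2 genes with the Rbpj core printed above. It stood at 2.92, 6.25 and 5.33 CPM in Ash1l het, against 3.81, 5.98 and 5.85 CPM in WT. Replicate 1 was lowest in both groups, the groups overlapped, and the log2 fold change was -0.11 (SE 0.30, 95% interval -0.79 to 0.57, edgeR adjusted p = 0.973). The interval runs from 0.577-fold to 1.48-fold. The log2 fold change was 0.14 when Ash1l het replicate 1 was left out. Astrocyte markers summed to 5370, 5290 and 3830 CPM in Ash1l het, against 5110, 4340 and 4180 CPM in WT, with 5 of 12 higher and 7 lower by sign and 0 called. Of the 2 highest, Slc1a2 had a log2 ratio of -0.03 (SE 0.17, edgeR adjusted p = 0.985) and Aldoc 0.04 (SE 0.14, edgeR adjusted p = 0.981), while Gfap, of the same list, had 2.06 (SE 0.81, edgeR adjusted p = 0.858).

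Hey1, a repressor downstream of Notch in vessels and glia (ENSMUSG00000040289, chromosome 3, 8663359 to 8667256, minus strand), stood at 36.2, 54.5 and 65.9 CPM in Ash1l het, against 49.8, 71.9 and 45.4 CPM in WT. The spread within each group, an SD of 15 CPM in Ash1l het against 14.2 CPM in WT, exceeded the difference between the means, which were 52.2 CPM in Ash1l het against 55.7 CPM in WT (n = 3 each). The log2 fold change was -0.09 (95% interval -0.68 to 0.50, edgeR adjusted p = 0.974).

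Hey2, an arterial relative of Hey1 (ENSMUSG00000019789, chromosome 10, 30832359 to 30842801, minus strand), is the other gene with the core in its printed window. It stood at 6.32, 5.21 and 5.06 CPM in Ash1l het, against 5.38, 6.76 and 4.46 CPM in WT. Both means were 5.53 CPM, with an SD of 0.690 CPM in Ash1l het against 1.16 CPM in WT (n = 3 each). The 95% interval of its log2 fold change ran from -0.49 to 0.48 (edgeR adjusted p = 0.999), and 99.2% of all tested genes had a smaller p. Arterial endothelial markers summed to 88.0 to 103 CPM in Ash1l het, against 94.8 to 114 CPM in WT. By sign 1 of 6 was higher and 5 were lower, with 0 called. Most of the sum was Efnb2 alone, at 80.1 to 91.4 CPM in Ash1l het, against 84.2 to 98.5 CPM in WT. On the log2 scale Efnb2 had a ratio of -0.06 (SE 0.11, edgeR adjusted p = 0.951) and Sox17 of -0.16 (SE 0.36, edgeR adjusted p = 0.963).

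**Figure D2:**
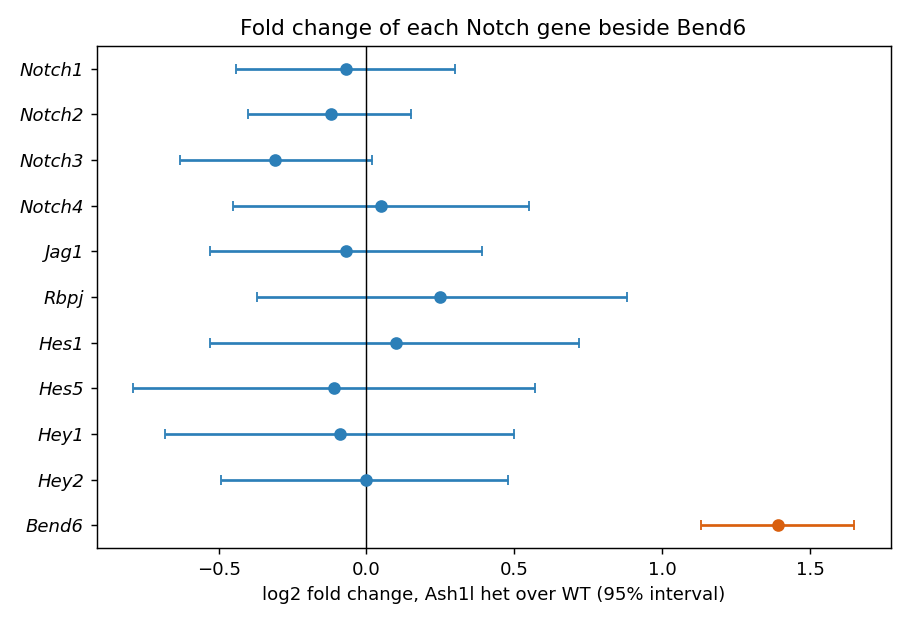
Log2 fold change of Ash1l het over WT (x axis) with its 95% interval from the fit across all genes, for the 10 Notch genes (blue) and Bend6 (orange). All 10 intervals include 0, and none reaches the Bend6 interval of 1.13 to 1.65.

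The 10 genes varied in part together across libraries, with Rbpj and Hey2 apart from most of the others. Of the 10, 5 were lowest in Ash1l het replicate 1 and 4 were highest in Ash1l het replicate 3, so the libraries of the same genotype held opposite extremes. Notch4, 1 of the 5, was tied there with WT replicate 3, at 4.28 CPM. In Ash1l het replicate 1 the log2 CPM minus the WT mean was -0.714 for Hes5 and -0.585 for Hey1, but 0.592 for Rbpj. Correlations of log2 CPM are a description over 6 libraries that share this depth and library structure. Hes1 and Hey1 had the highest among the 45 pairs (Pearson r = 0.87). Next came Hes1 and Hes5 (r = 0.83) and Notch1 and Notch2 (r = 0.81), and Notch4 and Rbpj had the lowest (r = -0.47). In pairs without Rbpj or Hey2, r ran from -0.04, for Notch3 and Notch4, to 0.87. All values below -0.04 were in pairs with Rbpj or Hey2.

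**Figure D3:**
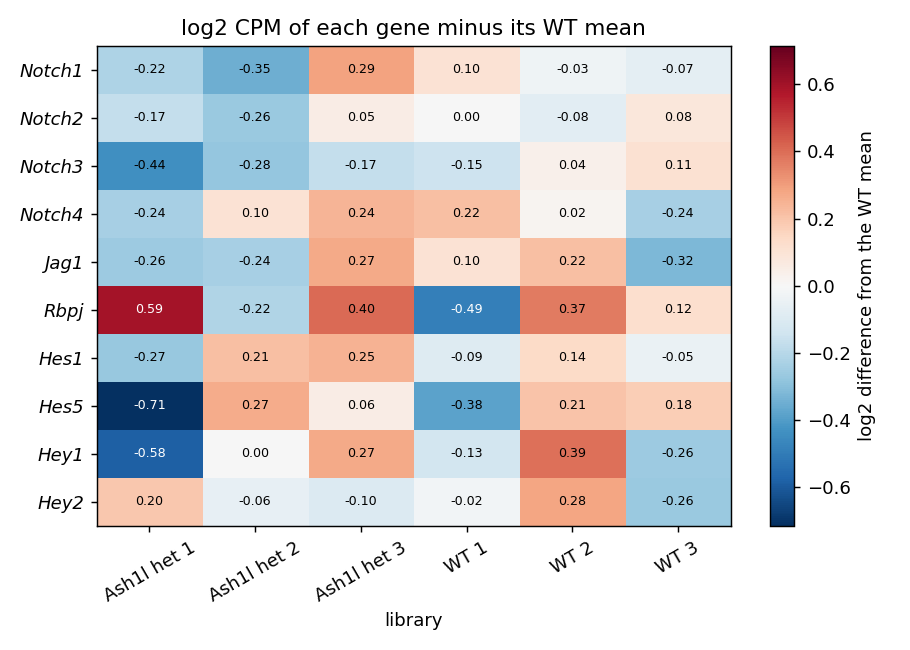
Log2 CPM of each of the 10 genes (rows) in each library (columns, Ash1l het left of WT) minus the mean of that gene in WT. Red is above and blue below the WT mean. Ash1l het replicate 1 holds the most blue, with Hes5 and Hey1 deepest, and Rbpj and Hey2 in red.

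Among 9551 or 9552 other genes with a mean of at least 10 CPM, the closest patterns over the 6 libraries were Dda1 and Abcf1 for Notch1 (r = 0.994 and 0.988), Nprl2 and Atp6v0e2 for Notch2 (0.991 and 0.990), Atg9a and Fbxo46 for Notch3 (0.994 and 0.993), and Amotl2 and Mfsd11 for Notch4 (0.991 and 0.985). They were Grm7 and Phf21a for Jag1 (r = 0.991 and 0.971) and Tmem185b and Aftph for Rbpj (0.997 and 0.996). For the targets they were Fau and Rpl7a for Hes1 (r = 0.983 and 0.980), Ring1 and Map2k2 for Hes5 (0.990 and 0.989), Slc29a1 and Nsun5 for Hey1 (0.992 and 0.986), and Ccdc34 and Jade3 for Hey2 (0.973 and 0.972). The number of genes with r over 0.95 ran from 5, for Notch4 and Jag1, to 49, for Notch2. Picking the highest of so many genes over only 6 libraries gives high values even for unrelated genes. The matches are a description, and shared regulation was not tested.

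Levels between genes were compared per length, in FPKM (fragments scaled to gene length and library size). Hey1 was highest, at 11.2 ± 3.06 FPKM in Ash1l het against 11.7 ± 2.72 FPKM in WT (mean ± SD, n = 3 each), and its lowest library, at 7.79 FPKM, lay above the highest library of any of the other 9. Hes5, Notch1 and Notch2 followed with means over the 6 libraries of 3.10, 3.04 and 2.87 FPKM, and their ranges overlapped. Hey2, Jag1, Rbpj and Notch3 came next, at 2.17, 2.15, 1.64 and 1.64 FPKM, each overlapping its neighbour. The range of Hes5, 1.82 to 4.1 FPKM, overlapped each of them, while the ranges of Notch1 and Notch2 lay above theirs. Hes1, at 0.810 FPKM, and Notch4, at 0.430 FPKM, were the lowest and overlapped neither each other nor the genes above.

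This order depends in its middle on the gene length. The length that the deposited FPKM imply was 2.55 kb for Hey2, against 4.59 kb of exons in GENCODE M21, and 20.5 kb for Rbpj, against 12.8 kb. With CPM divided by the GENCODE exon length, an alternative chosen after seeing the data, Hey2 moved from rank 5 to rank 8 and Rbpj from 7 to 5. Hey1, Hes5, Notch1 and Notch2 kept ranks 1 to 4, and Hes1 and Notch4 kept ranks 9 and 10, though the ranges of Hes1 (0.868 to 1.35) and Hey2 (0.971 to 1.47) then overlapped.

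**Figure D4:**
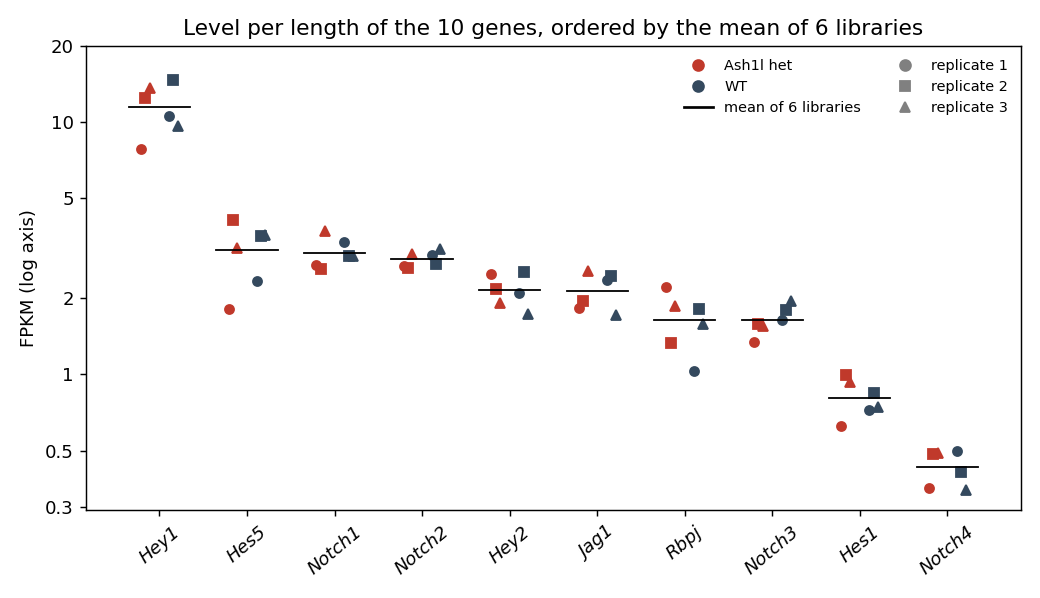
FPKM (y axis, log scale) of the 10 genes in each library, ordered by the mean over the 6 libraries (black line). Ash1l het libraries (red) are drawn left of WT libraries (dark blue) and symbols are replicates. Hey1 stands above the rest and Hes1 and Notch4 below, while genotypes overlap within each gene except Notch3.

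The rest of the pathway was examined with a list of 71 further genes grouped by role, of which 70 were in the table and 66 passed the filter. Of the 66, 1 was called by the quasi-likelihood test of edgeR, beside 0.0131% of all genes, and 0 were called lower. That 1 was Bend6, higher in Ash1l het, whose difference was known when the list was made. The other 65 were not called. With Bend6 counted, 7 (10.6%) had an unadjusted p under 0.05, beside 5.78% of all genes. Of these 7, 5 were lower and 2 higher. The groups did not overlap for 12 of the 66 (18.2%), Bend6 among them, beside 11.7% of all genes, and the median log2 fold change was -0.05. The 4 genes that did not pass the filter were Hes2, Hes3, Hes7 and Helt, all of the Hes family; Hes2 and Helt had no count in any library.

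The other ligands had 0 of 8 called. Dlk1, a membrane protein of the Delta-like family without the receptor-binding domain of classical ligands, had the largest fold change of them, at 12.7, 4.89 and 1.87 CPM in Ash1l het, against 2.07, 4.07 and 2.26 CPM in WT. Ash1l het replicate 1 was the highest library and replicate 3 lay below every WT library (log2 fold change 1.19, SE 0.70, edgeR adjusted p = 0.889). Dll1, a classical Delta ligand, had a log2 ratio of -0.28 (SE 0.18, edgeR adjusted p = 0.889).

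Genes that cleave the receptor had 0 of 9 called. Furin, the protease that makes the first cut in the secretory pathway, stood at 24.3, 24.6 and 32.6 CPM in Ash1l het, against 36.5, 34.7 and 31.8 CPM in WT, a log2 ratio of -0.34 (SE 0.14, edgeR adjusted p = 0.857). Psen2, a catalytic subunit of gamma-secretase, had -0.22 (SE 0.16, edgeR adjusted p = 0.897). Genes that glycosylate the receptor had 0 of 5 called. Lfng, a Fringe enzyme that changes which ligands a receptor answers, stood at 15.3, 17.5 and 20.2 CPM in Ash1l het, against 14.7, 14.9 and 14.7 CPM in WT, without overlap, a log2 ratio of 0.26 (SE 0.14, edgeR adjusted p = 0.878). Poglut1, which adds O-glucose to the receptor, had -0.16 (SE 0.14, edgeR adjusted p = 0.907).

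Endocytosis and turnover genes had 0 of 13 called, with 10 lower by sign. Dtx1, an E3 ubiquitin ligase of the Deltex family that binds the intracellular domain of Notch, stood at 44.8, 40.5 and 37.2 CPM in Ash1l het, against 54.5, 59.0 and 51.0 CPM in WT. Each Ash1l het library lay below each WT library, with a log2 fold change of -0.43 (SE 0.11, unadjusted p = 0.00429, adjusted p = 0.741 by the quasi-likelihood test of edgeR), so it did not pass. Numbl, an adaptor related to the Notch inhibitor Numb, stood at 59.4, 72.8 and 82.5 CPM in Ash1l het, against 83.7, 95.2 and 89.3 CPM in WT, a log2 ratio of -0.32 (SE 0.13, edgeR adjusted p = 0.857).

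Nuclear coactivators had 0 of 8 called, with 4 higher and 4 lower by sign. Kat2a, a histone acetyltransferase, stood at 81.0, 71.3 and 77.1 CPM in Ash1l het, against 87.6, 99.1 and 91.8 CPM in WT, without overlap, a log2 ratio of -0.28 (SE 0.10, edgeR adjusted p = 0.857). Maml3, a Mastermind coactivator that bridges Notch and Rbpj, had -0.30 (SE 0.16, edgeR adjusted p = 0.878).

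Nuclear corepressors had 1 of 19 called, the already known Bend6, with 8 higher and 11 lower by sign. A pair of others, chosen after their values were seen, also had groups that did not overlap and an unadjusted p under 0.05. Spen, a large RNA-binding corepressor that binds Rbpj, stood at 83.9, 119 and 124 CPM in Ash1l het, against 157, 150 and 148 CPM in WT, a log2 ratio of -0.48 (SE 0.15, edgeR adjusted p = 0.812). Cir1, named for its interaction with Rbpj as a corepressor, stood at 19.2, 16.4 and 18.4 CPM in Ash1l het, against 16.1, 12.3 and 14.3 CPM in WT, a log2 ratio of 0.34 (SE 0.15, edgeR adjusted p = 0.857). The signs of Bend6 and Cir1 were thus opposite to that of Spen, and Bend6 was the 1 of the 3 that passed.

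The other Hes and Hey relatives had 0 of 4 called, all lower by sign. Bhlhe40 and Bhlhe41, related repressors best known from the circadian clock, had log2 fold changes of -0.19 (SE 0.11, edgeR adjusted p = 0.887) and -0.08 (SE 0.12, edgeR adjusted p = 0.943).

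**Figure D5:**
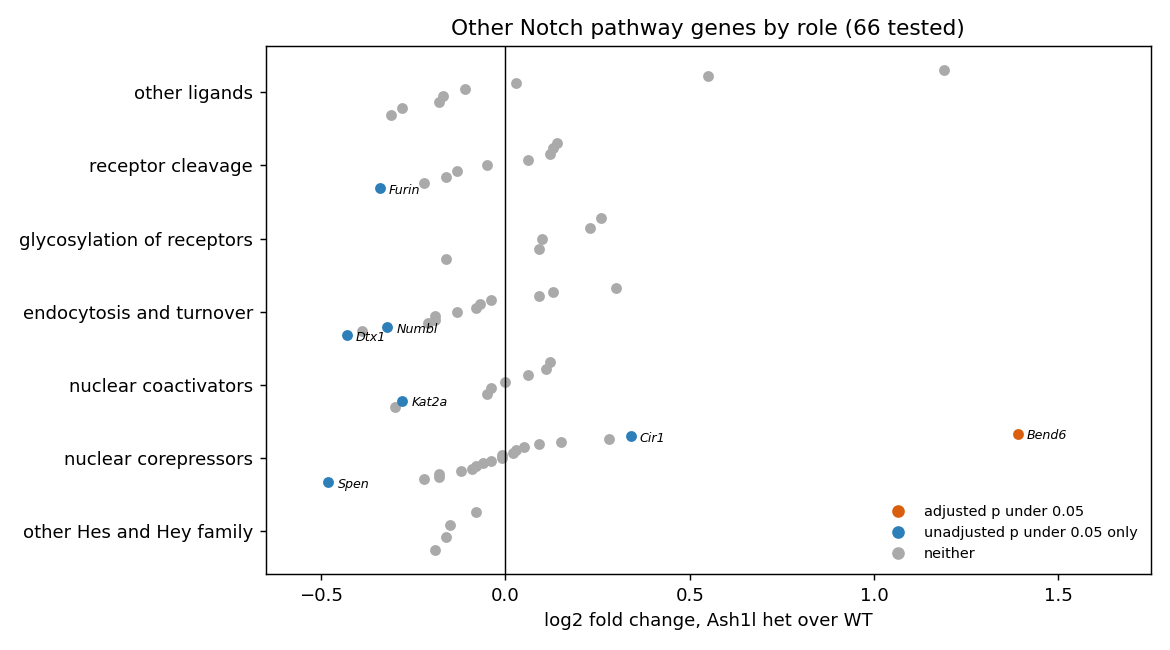
Log2 fold change of Ash1l het over WT (x axis) for the 66 tested genes of the wider Notch list, in rows by role. Orange marks an adjusted p under 0.05, blue an unadjusted p under 0.05 only, and grey neither. Bend6 is the 1 orange point, at 1.39, Dlk1 lies at 1.19 in grey, and the genes named in blue lie between -0.48 and 0.34.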

How the data were processed

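RNA of the dorsal striatum was sequenced in 3 Ash1l het and 3 WT libraries. Per the labels, a stranded kit for mRNA was used; per the submitters' processing notes the tools were HISAT2, StringTie, edgeR, CASAVA and FastQC, with build GRCm38 and no roles or settings. The authors deposited raw read counts per gene, and the 6 files for single samples held the same counts as the series table. The authors also deposited FPKM values, which equal the count divided by a fixed gene length and the library total: the implied length was whole, within 0.1 base, for 99.1% of the genes averaging 10 or more counts. The strand setting of the counting is not known from the labels.

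Deposited counts of all genes entered one edgeR 4.0.16 quasi-likelihood fit in R 4.3.3, using genotype alone as the term, TMM scaling, robust dispersion and the default filter at a minimum count of 10. This left 15267 genes, and Benjamini-Hochberg adjustment ran over all of them, with calls at an adjusted p under 0.05. CPM are on the TMM scale. Standard errors and 95% intervals come from the same fit. The exact permutation test used log2(CPM + 0.5), as did the correlations across libraries. Steps were tested on simulated counts. DESeq2 1.42.0, limma 3.58.1 and the other alternatives of the closing section were run beside it.

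The 10 genes and the lists of pathway and marker genes were chosen with earlier results of these data known. Named genes were the 10, Ash1l, Bend6, the called or else the 2 pathway genes with the smallest p in each group of roles, the 2 genes most like each of the 10 over the 6 libraries with a mean of at least 10 CPM, and up to 2 of the highest markers of a list; exceptions are marked. Promoter windows are RefSeq's, build GRCm38.p6.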

Additional observations from a re-analysis of the deposited data

How the results depend on the processing

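The count of 0 called genes among the 10 held in every alternative run: limma-voom, DESeq2 and the edgeR exact test; upper-quartile or RLE scaling; a stricter filter (1 CPM in 3 libraries) or none; FPKM tested by limma with a pseudocount of 0.1 or 1, which left out Notch4 as too low; the replicate block, an adjusted p under 0.10, and every set of left-out libraries. Over all genes the quasi-likelihood test called 2, DESeq2 35, the exact test 41, and the fit with Ash1l het replicates 1 and 2 both left out 50, where the lone Ash1l het library is assumed to vary like WT. With single libraries left out this count ran from 1 to 13, and the count of called genes in the wider pathway list from 0 to 1. The cause of these changes was not tested.

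The median log2 fold change of the 10 genes was 0.25 with both of those libraries left out, against -0.067 with all 6; with single libraries left out it ran from -0.207 to 0.053, and 3 to 8 of the 10 genes were lower by sign. With replicate 3 as the single Ash1l het library, the fold changes of Notch1, Notch2, Jag1, Hes5 and Hey1 turned sign. They were 0.29, 0.052, 0.26, 0.02 and 0.24, in that order. With all 6 libraries, 5 of 98 values in 10 alternatives turned sign, all of Hey2, which sits at 0: 0.007 by limma-voom, 0.011 with upper-quartile scaling, 0.051 on log2(FPKM + 0.1), 0.034 on log2(FPKM + 1) and 0.010 with the replicate block.

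With single libraries left out, 7 of the 10 genes turned sign at least once, with log2 fold changes from -0.29 to 0.057 for Notch1, -0.073 to 0.18 for Notch4, -0.28 to 0.047 for Jag1, -0.017 to 0.27 for Hes1, -0.34 to 0.14 for Hes5, -0.30 to 0.13 for Hey1 and -0.14 to 0.17 for Hey2. Notch2, Notch3 and Rbpj kept their sign.

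Replicate numbers are shared by the groups in the labels. Deviations from the group means correlated at 0.068, -0.077 and 0.007 between same-numbered samples, and Ash1l het replicate 2 correlated best with WT replicate 1, so the numbers were not taken to pair the samples. With the replicate block 3 genes were called over all genes and 0 of the 10. Depth limits Hes1 most, at 25 to 50 reads a library.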
